A study of Rattus norvegicus with 2 samples.

Results

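The immediate early genes analysed here are 10 genes that neurons switch on within minutes of a stimulus. They were taken by symbol as the genes named Fos, Fosb, Jun, Junb, Egr1, Egr2, Egr3, Arc, Nr4a1 and Npas4 in the deposited annotation. All 10 were found among the 22777 genes of the mRNA table, and they have 11 of its 26324 transcripts, since Arc is listed with 2 transcripts and each other gene with 1. Hypothalami of female Sprague Dawley rats were compared at 2 stages, prepuberty on postnatal day 25 and puberty, taken as the first estrus by vaginal smear, on postnatal day 35. The study's design gives 3 rats per stage, no genetic change and no treatment, and its methods state that all rats were killed under deep pentobarbital anesthesia and that the tissue was frozen at once. The time of day of collection is not given in the sources used here. With 1 column of values for a stage, each stage counts as 1 library, the spread between rats is unknown and no difference between the stages was tested.

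Transcription of immediate early genes does not wait for new protein. Calcium entry and growth factor signals activate kinases that phosphorylate factors already bound to the promoters, among them serum response factor with its partners at the CArG box and CREB at the cAMP response element (CRE). The transcripts decay quickly, so their level in a tissue reflects recent activity as well as constitutive expression. In the hypothalamus, FOS protein is used to map which neurons responded to a stimulus, including the neurons that respond at the preovulatory surge of gonadotropins. The products fall into AP-1 subunits (Fos, Fosb, Jun, Junb), zinc finger factors of the EGR family (Egr1, Egr2, Egr3), further transcription factors (Nr4a1, Npas4) and the synaptic protein Arc, which promotes the removal of AMPA receptors from synapses.

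The promoters were searched for elements known from the induction of such genes. A sequence was at hand for 6 of the 10 genes, Fosb, Junb, Egr1, Egr2, Nr4a1 and Npas4. The sequences are those of RefSeq in the build GRCr8 and cover the 250 bases before the start, 5′ to 3′ on the strand of the gene. The 5 with a match to a searched motif are printed, with capitals marking the matches. The motifs, searched on both strands, were the CRE (TGACGTCA), its core (TGACG), the CArG box, the AP-1 site (TGANTCA), the EGR site (GCGNGGGCG), the TATA box (TATAAA) and the E-box (CACGTG). A match to the CRE also contains its core.

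Egr1 lies on the plus strand and the window is chr18:26736828-26737077, with CArG boxes at positions -105 and -83 and CRE cores at -135 and -66, counted from the start of transcription.
Egr1: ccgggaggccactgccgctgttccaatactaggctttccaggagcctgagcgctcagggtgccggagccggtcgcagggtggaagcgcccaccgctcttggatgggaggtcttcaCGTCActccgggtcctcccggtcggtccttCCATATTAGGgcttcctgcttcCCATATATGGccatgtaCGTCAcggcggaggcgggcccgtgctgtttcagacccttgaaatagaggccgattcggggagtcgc
Egr2 lies on the minus strand and the window is chr20:21054442-21054691, with a CArG box at -83 and a CRE core at -66, the same positions as the pair nearest to the start in Egr1.
Egr2: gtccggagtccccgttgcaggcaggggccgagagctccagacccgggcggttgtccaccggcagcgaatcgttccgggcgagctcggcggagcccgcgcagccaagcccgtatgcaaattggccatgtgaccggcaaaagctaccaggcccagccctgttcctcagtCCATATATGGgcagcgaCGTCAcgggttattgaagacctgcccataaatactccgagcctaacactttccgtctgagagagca
Nr4a1 lies on the plus strand and the window is chr7:134259888-134260137, with CRE cores at -246, -226, -82 and -53 and an EGR site at -73.
Nr4a1: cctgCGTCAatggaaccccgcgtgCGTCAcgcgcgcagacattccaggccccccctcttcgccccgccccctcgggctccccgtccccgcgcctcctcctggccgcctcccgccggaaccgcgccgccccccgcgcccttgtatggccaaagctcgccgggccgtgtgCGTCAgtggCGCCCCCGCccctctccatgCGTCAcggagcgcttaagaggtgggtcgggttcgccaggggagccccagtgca
Junb lies on the plus strand and the window is chr19:40080876-40081125, with a CRE core at -155 and a TATA box at -49.
Junb: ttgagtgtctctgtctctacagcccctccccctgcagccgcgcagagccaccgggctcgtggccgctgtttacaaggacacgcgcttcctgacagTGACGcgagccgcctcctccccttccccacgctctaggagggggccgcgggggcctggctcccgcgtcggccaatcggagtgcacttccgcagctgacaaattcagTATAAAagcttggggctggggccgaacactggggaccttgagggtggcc
Fosb lies on the minus strand and the window is chr1:88089185-88089434, with a TATA box match on the opposite strand at -180.
Fosb: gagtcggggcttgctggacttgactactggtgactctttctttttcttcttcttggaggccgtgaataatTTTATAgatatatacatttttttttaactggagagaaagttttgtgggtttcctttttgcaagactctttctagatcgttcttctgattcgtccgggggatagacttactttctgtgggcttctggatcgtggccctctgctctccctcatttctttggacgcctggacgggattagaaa

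A CArG box was found in 2 of the 6 promoters, with 3 matches in all, against 501 of the 33469 promoters of the same length in the table (1.497%). The CRE core was found in 4 of the 6, with 8 matches, against 18.2% of all promoters. The EGR site was found in 1 of 6 (4.29% of all promoters) and the TATA box in 2 of 6 (12.9%). The whole CRE, the AP-1 site and the E-box were found in 0 of the 6 windows, against 1.59%, 6.34% and 5.59% of all promoters. The Npas4 window held none of the searched letters. The map of motif matches shows that Egr1 and Egr2 share the CArG box and CRE core at the same distance from the start, while the matches of Nr4a1 are CRE cores and an EGR site.

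**Figure D1:**
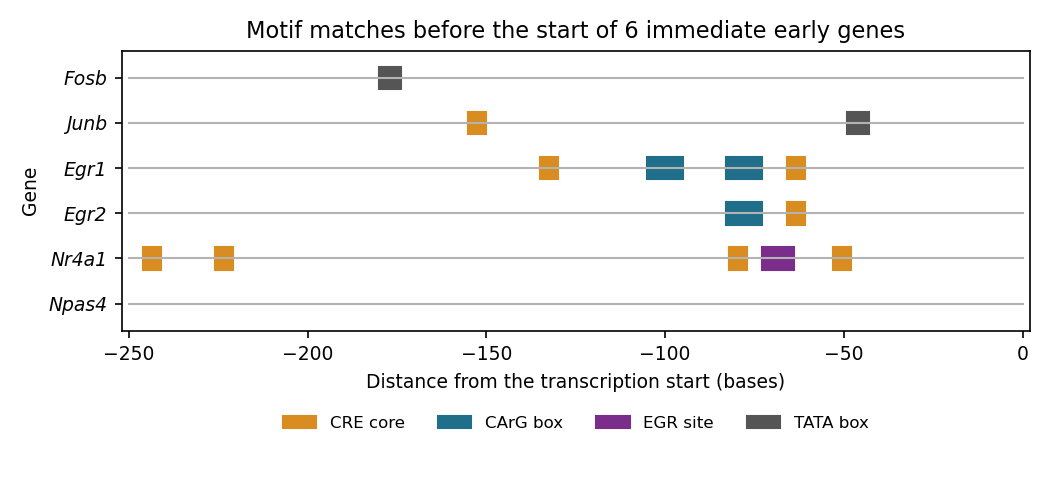
Motif matches in the 250 bases before the transcription start of 6 immediate early genes, 1 line per gene, with the distance from the start in bases on the x axis and a coloured box for each match. The CArG box at -83 and the CRE core at -66 recur in Egr1 and Egr2, and Nr4a1 has 4 CRE cores.

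The values are FPKM, fragments scaled to the length of the transcript and to the mapped fragments of the library, so levels of different genes can be set side by side. The number of fragments behind a value is not in the tables, but it can be read from the size of the steps between low values. With a divisor of 2.08e+07 fragments for the prepubertal and 1.62e+07 for the pubertal library, and 257 and 251 nt taken off the transcript length, 92.7% of 7870 and 93.1% of 8601 values of genes with 1 transcript came out whole within 0.05 of a fragment. Numbers within 0.05 of 1/3 or 2/3 of a fragment, as a plain mean over 3 rats would give, numbered 176 and 172. All 10 immediate early genes came out whole within 0.0082 of a fragment in both libraries, which gave 1367 fragments before puberty and 885 at puberty over the 10 genes. Intervals below are exact 95% intervals of these fragment numbers, or of their ratio, and cover counting error only, not the spread between rats.

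The tissue was checked against defining markers. The peptides of hypothalamic neurons were abundant, with Pmch, the precursor of melanin-concentrating hormone, at 1675 FPKM before puberty and 2723 FPKM at puberty, Oxt (oxytocin) at 411 and 686 FPKM, and Avp (vasopressin) at 254 and 240 FPKM. None of the 10 hypothalamic markers was at 0. At puberty 6 had a higher level and 4 a lower one (median log2 ratio of (FPKM + 1) 0.29), and their sum went from 2610 to 3999 FPKM. Markers of the telencephalon were present as well, and 8 of the 10 found, out of 11 listed, were lower at puberty, against 51.0% of all genes above 0. Of these, 7 were at least 1.5-fold lower in FPKM, against 8.33% of the 16709 genes above 0 in both libraries.

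The immediate early genes were expressed at low to middling levels, and the 2 libraries put them in nearly the same order. Jun was highest in both, at 13.9 FPKM before puberty and 13.1 FPKM at puberty, which placed it above 61.2% and 60.3% of the 18052 genes listed above 0 in 1 library or both. Fos had 11.9 and 11.2 FPKM and Junb 9.77 and 12.9 FPKM. Within each library these 3 AP-1 genes differed from their neighbours in the order by at most 1.22-fold, and the counting intervals of neighbours overlapped. Those of Jun and Junb were apart before puberty, with Jun higher, and overlapped at puberty. A gap of 2.21-fold before puberty and 4.08-fold at puberty followed, down to Arc. Arc had 4.41 and 2.74 FPKM and Egr1 3.76 and 2.39 FPKM, and this pair was not told apart in either library. Below them came Nr4a1 at 2.01 and 1.22 FPKM, Fosb at 0.900 and 0.432 FPKM and Npas4 at 0.415 and 0.251 FPKM. Egr2 had 0.268 and 0.137 FPKM and Egr3 0.209 and 0.214 FPKM, the lowest pair, above 12.7% and 13.0% of genes in the case of Egr3. The counting intervals of Npas4, Egr2 and Egr3 overlapped in neighbouring pairs in both libraries, and that of Fosb overlapped with that of Npas4 at puberty. In both libraries Jun, Fos and Junb thus stood above Arc and Egr1, these above Nr4a1, and Nr4a1 above the remaining 4 genes, of which Fosb stood apart from Npas4 before puberty.

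**Figure D2:**
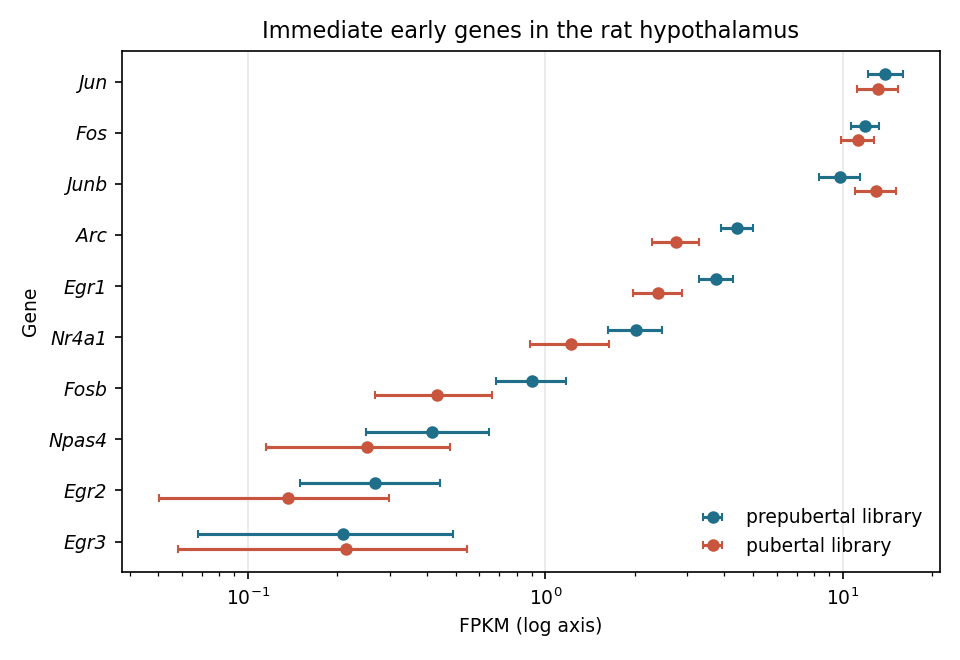
Level of each immediate early gene as FPKM on a log axis, in the prepubertal (blue) and the pubertal library (red), with exact 95% counting intervals as bars. Jun, Fos and Junb lie between 9.77 and 13.9 FPKM, Egr2 and Egr3 below 0.3 FPKM, and the red point lies left of the blue for 8 of the 10 genes (6 with the libraries scaled to equal Actb).

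At puberty 8 of the 10 immediate early genes had a lower level and 2 a higher one in FPKM as deposited (6 and 4 with the libraries scaled to equal Actb), where 51.0% of the 18052 genes had a lower level and 49.0% a higher one (16.6% and 83.4% at equal Actb). On the scale of log2 of (FPKM + 1), pubertal minus prepubertal, which draws low values towards 0, the members ranged from -0.53 (Arc) to 0.37 (Junb), with a median of -0.17 against -0.0061 for all genes above 0. By this measure 0 of the 10 were at least 2-fold lower and 0 at least 2-fold higher, against 0.471% and 0.388% of genes. In plain FPKM, a scale added after the values were seen, 6 members were at least 1.5-fold lower at puberty, against 8.33% of the 16709 genes above 0 in both libraries. With the libraries scaled to equal Actb this count was 1 (Fosb, 1.57-fold), against 3.26% of genes, and Junb was 1.75-fold higher. Among the 955 genes of 2400 to 3300 nt with a mean of 0.1 to 5 FPKM, a window set after the fact so as to hold these 6 genes, the share was 15.4%. In tissue, fewer cells that express a gene and less RNA per cell cannot be told apart.

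By the size of the FPKM ratio, Fosb, Egr1, Egr2, Arc, Nr4a1 and Npas4 were 1.57-fold to 2.09-fold lower at puberty in FPKM, and their sum went from 11.8 to 7.17 FPKM, resting on 659 and 314 fragments. Fos, Jun, Junb and Egr3 stayed between 1.06-fold lower and 1.32-fold higher, and their sum went from 35.8 to 37.4 FPKM, resting on 708 and 571 fragments. This grouping follows the ratios alone, since the counting intervals of Egr2, Npas4 and Egr3 held equality as well as the ratios of the other genes. Since Fos, Jun and Junb are the most abundant of the genes, the sum over all 10 moved little, from 47.5 to 44.6 FPKM.

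The AP-1 subunits form dimers, in which a Fos protein pairs with a Jun protein and Jun proteins can also pair among themselves. Fos, the gene whose product is the common marker of neuronal activation, rested on 329 fragments before puberty and 243 at puberty. Its pubertal level was 0.942 times the prepubertal level, with a counting interval of 0.795 to 1.12 that holds equality. Jun, whose transcript was counted on a model of 1005 nt, rested on 216 and 160 fragments, and its ratio was also 0.942, with an interval of 0.763 to 1.16. Fos and Jun thus kept the same proportion to each other, 0.856 in both libraries.

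Junb, which often restrains transcription driven by Jun, was the member that was higher at puberty by more than its counting error. It rested on 158 fragments before puberty and 164 at puberty, which the lower depth of the pubertal library turns into a ratio of 1.32, with an interval of 1.05 to 1.65. Jun exceeded Junb 1.42-fold before puberty and 1.01-fold at puberty. Fosb, whose truncated product ΔFosB accumulates with repeated stimulation, went the other way. It rested on 56 and 21 fragments and was 2.09-fold lower at puberty (interval 1.24 to 3.63), the largest fold among the 10 genes. Fos exceeded Fosb 13.2-fold before puberty and 25.9-fold at puberty. Over all 4 AP-1 genes the sum was 36.5 and 37.6 FPKM.

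The EGR factors bind a shared GC-rich site through 3 zinc fingers. Egr1 (also Zif268), the most abundant of them and a factor for the Lhb gene in the pituitary, rested on 223 and 111 fragments and was 1.57-fold lower at puberty, with an interval of 1.25 to 1.99. Egr2 (Krox20), known from hindbrain segments and myelinating Schwann cells, rested on 15 and 6 fragments, and its fold of 1.96 has an interval of 0.717 to 6.15 that holds equality. Egr3 rested on 5 and 4 fragments, a ratio of 1.02 with an interval of 0.202 to 4.74. At this depth a difference in Egr2 or Egr3 of the size seen in Egr1 was not detectable. Egr1 exceeded Egr2 14.04-fold before puberty and 17.48-fold at puberty, a proportion that rests on the few fragments of Egr2.

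Nr4a1 (Nur77) encodes an orphan nuclear receptor that binds DNA as a monomer or dimer without a known natural ligand. It rested on 93 and 44 fragments and was 1.65-fold lower at puberty, with an interval of 1.14 to 2.42. Npas4, a factor that responds to calcium entry in neurons and little to other signals, rested on 19 and 9 fragments. Its fold was also 1.65, but the interval of 0.712 to 4.15 holds equality. Arc, which is transported to dendrites, rested on 253 and 123 fragments and was 1.61-fold lower at puberty (1.29 to 2.01). Its transcripts moved alike, ENSRNOT00000067442 from 2.60 to 1.55 FPKM and ENSRNOT00000076998 from 1.82 to 1.20 FPKM. The transcripts are 3026 and 3004 nt long, and the files assign them 149.4 and 103.6 fragments before puberty, so shared fragments were split between them.

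By counting error alone and in FPKM as deposited, Fosb, Egr1, Arc and Nr4a1 were lower, Junb was higher, and the interval of the other 5 genes held equality. Among 6731 genes with 1 transcript and whole fragment numbers, up to 600, in both libraries, which include all members but Arc, 12.9% were lower and 10.1% higher by this measure. With the libraries scaled to equal Actb the interval of 0 members lay on the lower side and that of 3 (Fos, Jun and Junb) on the higher, against 1.69% and 44.0% of these genes. The 2 genes nearest to Fos in levels, by Euclidean distance over log2(FPKM + 1) in the 2 libraries, were Akap17b (11.9 and 11.2 FPKM) and Fech (12.005 and 11.2 FPKM). Those nearest to Egr1 were Drd1, a dopamine receptor (3.70 and 2.46 FPKM), and Nol4l (3.90 and 2.37 FPKM). With 2 libraries such likeness is a matter of level and ratio alone.

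The listed transcript models of the members differed in length, and these lengths are those of the annotation. The 4 genes whose counting interval lay on the lower side are 2481 (Nr4a1) to 3251 nt long (Fosb), and Junb, on the higher side, is 1035 nt long. Of the 5 genes whose interval held equality, Jun, Egr3 and Fos are 1005 to 1589 nt long, and Npas4 and Egr2 are 2460 and 2956 nt long. Over all genes with at least 1 FPKM in 1 library, the median log2 ratio of (FPKM + 1) was 0.04 for the 4786 genes of 1000 to 1999 nt, of which 42.0% were lower at puberty. It was -0.02 for the 4371 genes of 2000 to 3499 nt, of which 54.3% were lower. After each log2 ratio was centred on the median of its length class, Arc was at -0.51, Egr1 at -0.47, Nr4a1 at -0.42, Fosb at -0.39 and Junb at 0.33. The part of length within these classes was not tested.

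**Figure D3:**
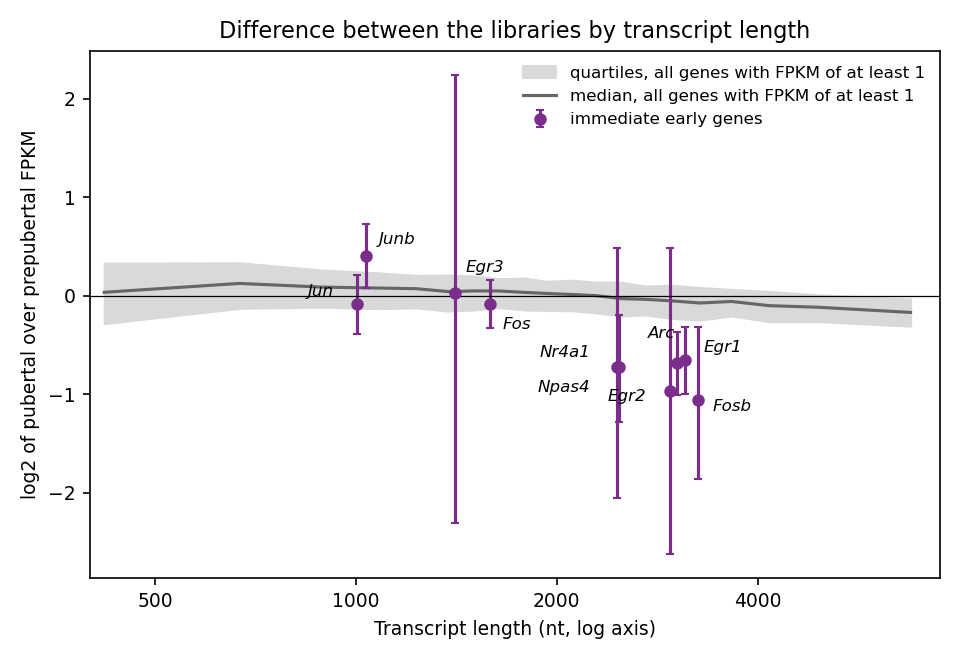
log2 of pubertal over prepubertal FPKM against transcript length in nt (log axis) for the 10 immediate early genes (purple, bars are exact 95% counting intervals), with the median and quartiles of all genes with at least 1 FPKM in 1 library (grey). The points of the 6 members of 2460 nt or more lie below the grey band. Fosb, Egr2, Egr3 and Npas4 do not reach 1 FPKM in either library, so the band does not show the scatter of genes at their level. Those of Fos, Jun and Egr3 lie near 0 and that of Junb lies above the band, while the bars of Fos, Jun, Egr2, Egr3 and Npas4 cross 0.

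Paralogs of the members differed among themselves. Of those given here, Nr4a2, Egr4 and Fosl2 were chosen after their values were seen. Nr4a3, the third of the NR4A receptors, had 1.45 FPKM before puberty and 0.583 FPKM at puberty, 2.48-fold lower, and was the only one of the 20 other immediate early transcription factors past 1.5-fold in FPKM + 1. Nr4a2 (Nurr1), needed for dopamine neurons, had 4.61 and 4.58 FPKM. Egr4 had 0.407 and 0.195 FPKM, 2.09-fold lower at a level below 1 FPKM. Jund, the constitutive Jun protein and the most abundant factor of the list, had 54.1 and 56.2 FPKM, and Fosl2 had 4.75 and 6.60 FPKM. Over the list of 20 other immediate early transcription factors, 9 were higher and 11 lower at puberty with a median log2 ratio of -0.02. Its other abundant members, Bhlhe40 (18.0 and 18.6 FPKM) and Klf6 (7.46 and 7.82 FPKM), were within 1.05-fold.

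Feedback regulators, which are induced by the same signals and shut them off, were mostly lower in FPKM as deposited, though not with the libraries scaled to equal Actb, where the median log2 ratio was 0.22. Of 14 listed genes, 10 were lower and 4 higher, with a median of -0.14. Sik1, a kinase that holds the CREB coactivators in the cytoplasm, had 5.29 and 3.17 FPKM, 1.67-fold lower. The MAP kinase phosphatases Dusp1 (15.8 and 13.6 FPKM) and Dusp6 (16.1 and 13.5 FPKM) were up to 1.19-fold lower, and Rgs2, a regulator of G protein signaling, was 1.15-fold higher (54.8 and 63.2 FPKM).

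Genes of the later response showed no common direction. Of 14 that were found, out of 15 listed, 6 were higher and 8 lower, with a median of -0.04. Sgk1, a kinase also induced by glucocorticoids, stood apart with 38.3 FPKM before puberty and 68.3 FPKM at puberty, 1.79-fold higher. The peptide precursors Scg2 (424 and 437 FPKM) and Penk (89.2 and 96.5 FPKM) were within 1.08-fold, and Nrn1, which promotes neurite growth, had 116 and 86.9 FPKM.

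Upstream kinases and factors were lower in 16 of 20 cases in FPKM as deposited, with a median of -0.31 that became 0.071 with the libraries scaled to equal Actb. Of these, Camk2a, a calcium-dependent kinase of telencephalic excitatory neurons, was 2.40-fold lower (59.6 and 24.8 FPKM). Crtc1, a coactivator of CREB, was 1.73-fold lower (5.47 and 3.16 FPKM) and Camk4, which phosphorylates CREB, 1.58-fold lower (14.1 and 8.91 FPKM). The MAP kinase Mapk3 (49.5 and 48.0 FPKM) and Map2k1, which activates it (129 and 137 FPKM), were within 1.06-fold. Srf, whose product binds the CArG box and which was chosen after its value was seen, had 10.2 FPKM in both libraries.

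Markers of other brain regions and of neurons also differed between the libraries. The summed level of 10 telencephalic markers was 141 FPKM before puberty and 71.8 FPKM at puberty, with a median log2 ratio of -0.54, and none of these was at 0. Camk2a (59.6 and 24.8 FPKM) has the largest part in this sum and is also in the list of upstream kinases and factors, so the 2 lists are not separate. Slc17a7, the vesicular glutamate transporter of the cortex, had 26.2 and 12.8 FPKM and Ddn, a dendritic protein of the forebrain, 24.7 and 14.3 FPKM. Of 6 thalamic markers 5 were lower (median -0.43), among them Prkcd (108 and 85.3 FPKM) and Plekhg1 (23.6 and 17.9 FPKM). Calb2, the most abundant, was higher (323 and 374 FPKM), and the thalamic sum went from 484 to 496 FPKM. Of 5 striatal markers 3 were lower (median -0.02), with Ppp1r1b (26.3 and 29.1 FPKM) and Rgs9 (8.13 and 10.4 FPKM) higher. All 5 neuronal markers were lower in FPKM as deposited (median -0.27, but 0.14 with the libraries scaled to equal Actb). Snap25 (654 and 628 FPKM) and Eno2 (544 and 541 FPKM) were hardly lower and Stmn2 more so (237 and 172 FPKM). Arc and Egr1 are known for high expression in cortex and hippocampus, and the part of telencephalic tissue in the levels of the immediate early genes was not tested.

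Markers of other cells went in several directions. All 4 red blood cell genes were higher at puberty, from a summed 6406 to 12539 FPKM, with Hbb 2.77-fold higher, Hba1 1.55-fold and Hba2 1.55-fold. As near-identical copies Hba1 and Hba2 can have shared fragments. All 6 microglial markers were higher (median 0.20), the most abundant being C1qa, Aif1 and Csf1r at 80.4, 49.2 and 26.7 FPKM before puberty and 95.4, 69.5 and 30.1 FPKM at puberty. Of 5 endothelial markers 4 were lower in FPKM as deposited (median -0.21, but 0.17 with the libraries scaled to equal Actb). Cldn5 went from 70.9 to 65.5 FPKM and Pecam1 from 12.9 to 11.0 FPKM, with Flt1 at 9.49 and 10.5 FPKM. Astrocyte markers were close to balance (3 of 4 higher, median 0.08), with Gfap at 257 and 288 FPKM, Slc1a3 at 250 and 251 FPKM and Aqp4 at 224 and 188 FPKM. Of 6 heat shock genes, which respond to stress of the cell, 5 were higher (median 0.29). Hspa1a and Hspa1b, near-identical copies listed with the same values, were 3.21-fold higher, while Hsp90aa1 (1337 and 1416 FPKM), Dnajb1 (31.1 and 32.6 FPKM) and Hsph1 (102 and 86.6 FPKM) differed less. The part of these cells and of stress in the levels of the immediate early genes was not tested.

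**Figure D4:**
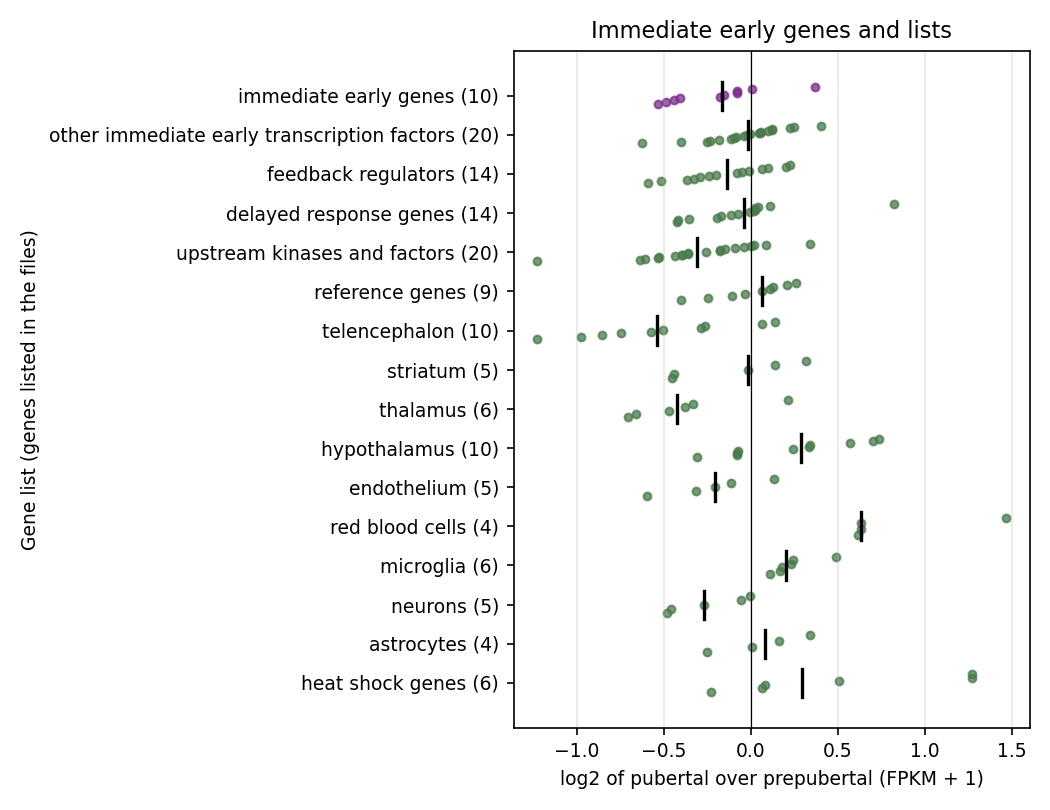
log2 of pubertal over prepubertal (FPKM + 1) of each gene, 1 point per gene and 1 line per list, with the number of genes found in brackets and the median as a black bar. The median of the immediate early genes (purple) is -0.17, and -0.67 with no pseudocount. Medians near it on the scale shown are those of the feedback regulators (-0.14), endothelium (-0.21), neurons (-0.27) and upstream kinases and factors (-0.31). With no pseudocount those of the feedback regulators and the upstream list are -0.15 and -0.33. The telencephalic markers are lowest (-0.54) and the red blood cell genes highest (0.63).

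The scale between the libraries was set by Actb as an alternative. Of 9 reference genes 5 were higher and 4 lower at puberty (median 0.06), and the most abundant differed among themselves, with Ppia at 2708 and 3124 FPKM, Gapdh at 1839 and 2012 FPKM and Actb at 763 and 576 FPKM. Actb had the largest log2 ratio of the 9 in size (-0.40, against -0.24 to 0.26 for the other 8), and scaling to it put the median of the 9 at 0.43. When pubertal FPKM were multiplied by 1.32 so that Actb was equal, Fos and Jun were higher at puberty, each with a log2 ratio of 0.30, and 6 members were lower and 4 higher. Arc (-0.22), Nr4a1 (-0.21), Egr1 (-0.19) and Fosb (-0.27) kept log2 ratios below 0 under this scaling, but their folds in FPKM shrank to 1.21, 1.25, 1.19 and 1.57. The counting intervals of all 4 then held equality (0.975 to 1.52 for Arc, 0.864 to 1.83 for Nr4a1, 0.941 to 1.504 for Egr1 and 0.939 to 2.74 for Fosb). Those of Fos (1.05 to 1.48), Jun (1.01 to 1.54) and Junb (1.40 to 2.19) lay above equality, as the ratio of pubertal to prepubertal FPKM. With equal medians, a factor of 1.04, 8 members were lower and 2 higher, as without scaling, and the same 4 genes had intervals on the lower side and Junb on the higher.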

How the data were processed

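Total RNA of the hypothalamus was depleted of ribosomal RNA and sequenced as strand-specific paired ends. Alignment was by TopHat and assembly by Scripture and Cufflinks 2.1.1, and the authors deposited FPKM per transcript, estimated with Cuffdiff 2.1.1. The submitters' processing notes name the build Rnor_5.0, whereas the methods link an annotation of Rnor_6.0. Lengths were taken from the deposited comparison table. Its log2 ratios, p-values and q-values are the authors' own comparison and were not used, and neither were the lncRNA files.

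FPKM of the transcripts of a gene were summed, and log2((pubertal + 1) / (prepubertal + 1)) was computed with no filter. Fragment numbers were recovered from transcripts of 900 to 6000 nt of genes with 1 transcript and up to 600 fragments, by fitting the total and the length taken off. In a test on simulated data 8025 of 8025 fragment numbers and 197 of 200 changes of 3-fold (as past 2-fold) were recovered. Recovery of smaller changes, such as those of the members (at most 2.09-fold in FPKM), was not tested. Counting intervals are exact Poisson and Clopper-Pearson intervals at 95%. The members and lists were chosen with earlier results of these data known. Named from the related lists were genes changed at least 1.5-fold in FPKM + 1 (markers 2-fold) with FPKM of at least 1 in 1 library, and the 3 highest of each list by mean FPKM, besides all members, the 2 genes nearest to Fos and to Egr1, and Actb. Of the genes so named, 2 are not reported here. Scripts ran under Python 3.11.15 with scipy 1.17.1 for the intervals, pandas 2.3.3 and numpy 2.4.6 for the tables, and matplotlib 3.10.9 for the plots.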

Additional observations from a re-analysis of the deposited data

How the results depend on the processing

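With 1 library per stage no replicate could be left out, and no paired analysis was possible because each stage has 1 column. The 7 alternatives fixed at the start and 2 added after the values were seen (no pseudocount, and centring within 4 classes of transcript length) were compared with the values as reported. The median log2 ratio of the 10 members was -0.59 with a pseudocount of 0.1, -0.28 with 0.5 and -0.67 with none, as a pseudocount of 1 draws the members below 1 FPKM towards 0. With no pseudocount 1 member, Fosb, was at least 2-fold lower. With FPKM of at least 1 in 1 library, 6 members were left, 1 higher and 5 lower. With equal Actb the number of members whose counting interval lay on the lower side went from 4 to 0 and on the higher side from 1 to 3, while the shares of all such genes went from 12.9% to 1.69% and from 10.1% to 44.0%, the number at least 1.5-fold lower in FPKM went from 6 to 1 and at least 1.5-fold higher from 0 to 1, 4 members were higher, Fos and Jun reversed to 0.30 each and the summed ratio of the members to 1.24. List medians that reversed with equal Actb were those of other immediate early transcription factors (0.28), feedback regulators (0.22), delayed response genes (0.28), upstream kinases and factors (0.071), striatum (0.24), endothelium (0.17) and neurons (0.14), which the factor of 1.32 produces by construction. With equal medians, those of other immediate early transcription factors (0.026), delayed response genes (0.0049) and striatum (0.017) reversed. With centring by length 1 member was higher, as Egr3 reversed to -0.037, and the medians of other immediate early transcription factors (0.0045) and striatum (0.0063) reversed. The transcript with the highest FPKM and the FPKM of the comparison table, where 13 transcripts differ and 0 of them are members, reversed no value. Depth limits Egr2, Egr3 and Npas4, which rest on 4 to 19 fragments per library.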
